A study of Drosophila melanogaster with 2 samples.

Results

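The maternal genes that set the axes of the fruitfly embryo and assemble its germ plasm were chosen by name, and all 10 of them were found among the 17698 genes listed for an mRNA library of adult Drosophila melanogaster. They are osk, nos, bcd, grk, vas, tud, pgc, gcl, stau and exu. The library was the only mRNA library of the series and has no replicate. It was made from total RNA of adults, harvested with Trizol, and the series holds a second library of small RNA that was not used here. The labels state no strain, genotype, sex, age, treatment or number of flies for it.

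In the Drosophila ovary, nurse cells make RNAs that are carried into the oocyte and anchored at set places before the egg is laid. bcd RNA is held at the anterior pole, osk and nos RNAs at the posterior pole, and grk RNA beside the oocyte nucleus. At the posterior pole, Oskar protein gathers Vasa, Tudor and further RNAs into the germ plasm, the cytoplasm that turns the cells which take it up into pole cells, the founders of the germ line. RNAs of these genes are therefore present in the ovary of an adult, some for use there and some for the embryo. However, some of the genes also act in the male germ line or in the soma.

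All 10 genes were well above the typical gene of the adult library in TPM, a level that corrects for transcript length and sums to the same total in every library, except that grk stood close to the typical protein-coding gene. pgc, osk and exu were the 3 most abundant, at 549, 479.6 and 314 TPM, and together held 73.2% of the summed level of the 10 genes. gcl followed at 109 TPM. The levels of nos, vas, tud, stau and bcd lay close together, from 79.5 down to 63.5 TPM, and grk was the lowest at 28.0 TPM. Every gene of the 10 reached at least 10 TPM, as did 51.9% of all listed genes and 64.2% of the 13792 protein-coding genes. At a threshold of 1 TPM, the shares were 75.9% of all listed genes and 86.3% of protein-coding genes, so that passing 1 TPM says little about these 10. Their median was 77.2 TPM, against 11.7 TPM over all listed genes and 22.3 TPM over protein-coding genes. The 10 genes summed to 1833 TPM, or 0.183% of the library.

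**Figure D1:**
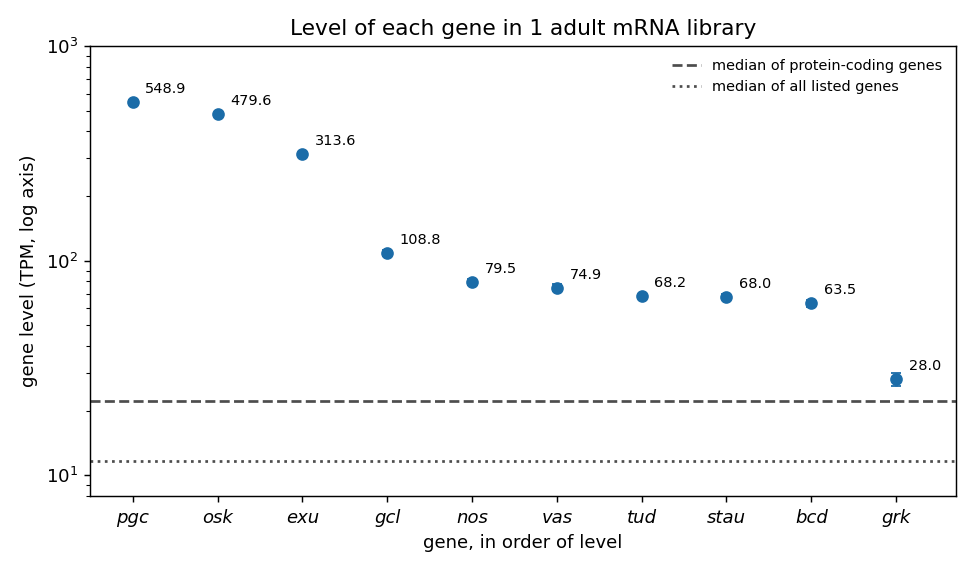
Level of each of the 10 genes in the adult mRNA library, in TPM on a log axis. Points are the summed TPM of a gene's transcripts, bars are 95% exact Poisson intervals that cover counting error only, and lines mark the medians of protein-coding genes (22.3 TPM) and of all listed genes (11.7 TPM). The 10 points fall from 549 TPM for pgc to 28.0 TPM for grk, and all lie above both lines.

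The file held 26179479 counts in 34736 transcripts, and 73277 of the counts belonged to the 10 genes. Levels are given with 95% exact Poisson intervals of the summed count, carried to TPM. They cover counting error only, and how far flies or libraries differ is unknown. Defining genes of other tissues were present as well. All 11 follicle cell markers, which make the eggshell, reached 1 TPM, as did 86.3% of protein-coding genes. They ranged from 3.16 to 1361 TPM, with 3368 TPM in sum. All 12 testis markers (1.46 to 934 TPM, 3707 TPM in sum) also reached 1 TPM. So did all 5 accessory gland markers (272 to 629 TPM, 2094 TPM in sum). Germline markers, 5 of 5, ranged from 4.47 TPM for bgcn to 192 TPM for otu, a gene needed for oogenesis. The 3 yolk protein markers ranged from 543 to 913 TPM, the 4 eye markers from 47.0 to 1671 TPM and the 4 flight muscle markers from 11.4 to 321 TPM. The library thus held RNA of both ovary and male reproductive tract in unknown proportion, and their part in the level of any of the 10 genes was not tested. In whole flies, fewer cells of a type and less RNA per cell cannot be told apart.

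pgc and osk, whose RNAs collect in the germ plasm, were the most abundant of the 10 genes. pgc encodes a small protein that holds back transcription in the pole cells. Its 6432 counts gave 549 TPM (interval 536 to 562), a level above that of 98.6% of the listed genes. The gene lies on chromosome arm 2R, plus strand, from 22330200 to 22332813. osk encodes the protein that founds the germ plasm, and lies on arm 3R, plus strand, from 8935126 to 8938395. It had the most counts of the 10 genes, 23253, which gave 479.6 TPM (interval 473 to 486) and placed it above 98.4% of the listed genes. Per length, pgc therefore exceeded osk by 1.14 times (95% interval 1.11 to 1.18, from the exact binomial interval of their counts), although osk had several times its counts.

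gcl encodes a substrate adaptor of a ubiquitin ligase that is needed to form pole cells. It stood at 109 TPM (interval 106 to 112) from 4534 counts and lies on arm 2R, plus strand, from 8724258 to 8728999. nos encodes a repressor of translation that acts with Pumilio and Brat against hunchback RNA at the posterior pole. It stood at 79.5 TPM (interval 76.7 to 82.3) from 3096 counts, on arm 3R, plus strand, from 19157238 to 19160202. Of the 4 genes studied here whose RNAs collect in the germ plasm, the abundant pair of pgc and osk was thus set off from gcl and nos. The TPM of pgc was 5.05 times that of gcl (interval 4.86 to 5.24), and the TPM of osk was 6.04 times that of nos (interval 5.81 to 6.27).

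vas and tud, whose proteins build the germ plasm and the nuage of the nurse cells, were near each other. vas encodes a DEAD-box RNA helicase that marks the germ line of both sexes. It stood at 74.9 TPM (interval 72.2 to 77.7) from 2833 counts, on arm 2L, plus strand, from 15061656 to 15074311. tud encodes a scaffold with repeated Tudor domains, which bind methylated arginines of proteins such as Aubergine. It stood at 68.2 TPM (interval 66.9 to 69.5), from 10186 counts summed over its long transcripts, on arm 2R, plus strand, from 21183322 to 21192913. The TPM of vas was 1.10 times that of tud (interval 1.05 to 1.15), while osk exceeded vas by 6.40 times (interval 6.16 to 6.66).

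The anterior determinant bcd and the dorsal ligand grk were the lowest of the 10. bcd encodes the homeodomain protein whose gradient patterns the head and thorax. It stood at 63.5 TPM (interval 61.1 to 65.9) from 2664 counts, on arm 3R, minus strand, from 6755842 to 6759466. grk encodes a ligand of the TGF-alpha type, which signals from the oocyte to the epidermal growth factor receptor of the follicle cells. Its 814 counts gave 28.0 TPM (interval 26.1 to 30.01), above 64.6% of the listed genes and 1.26 times the median of the protein-coding genes. grk lies on arm 2L, minus strand, from 8431086 to 8433598. The posterior determinant osk exceeded bcd by 7.56 times (interval 7.26 to 7.87), and the highest gene, pgc, exceeded grk by 19.6 times (interval 18.2 to 21.1).

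Of the 2 genes whose proteins carry or anchor these RNAs, exu was the more abundant. exu is needed to bring bcd RNA to the anterior pole, and also acts in the male germ line. It stood at 314 TPM (interval 308 to 319) from 13501 counts, above 97.4% of the listed genes, and lies on arm 2R, minus strand, from 20667427 to 20671083. stau encodes a protein that binds double-stranded RNA, anchors bcd and osk RNAs and also acts in the nervous system. It stood at 68.0 TPM (interval 66.3 to 69.7) from 5964 counts, on arm 2R, minus strand, from 18117896 to 18125779. The ratio of exu to stau was 4.61 (interval 4.47 to 4.76), and 2.83 with the leading transcript of each gene alone.

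In the order of the 10 levels, 9 pairs of genes are neighbours, and for 8 of them the counting interval of the TPM ratio lay above 1. tud and stau could not be ordered, with a ratio of 1.003 (interval 0.971 to 1.04). The next smallest ratios were 1.06 for nos over vas (interval 1.01 to 1.12) and 1.07 for stau over bcd (interval 1.02 to 1.12), and differences of this size cannot be set against a spread between flies. With the leading transcript of each gene alone, nos lay below vas (ratio 0.866), tud (0.938) and stau (0.949). The wider steps were those from exu to gcl, 2.88 times (1.78 with leading transcripts alone), and from bcd to grk, 2.27 times (1.67). The step from osk to exu was 1.53 times, but 2.48 with leading transcripts alone, where it was the widest. The order holds per length only. By counts, which grow with transcript length, osk led with 23253, followed by exu with 13501 and tud with 10186, and pgc came after these with 6432.

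Of the 28 transcripts listed for the 10 genes, 27 had counts. The share with counts over all listed transcripts was not computed. A single transcript carried nearly all of the level in most genes. For grk, 1 transcript is listed. Among the 9 genes with 2 or more transcripts, the leading one held over 90% of the TPM in 6 and at least 70% in 8, and the median of its share was 96.6%. Over the 5212 genes of the library with 2 or more transcripts and at least 10 TPM, the leading transcript held at least 70% in 71.9%, with a median share of 88.2%, and at least 90% in 46.6%. The leading share falls as more transcripts are listed. Its median over such genes was 96.6% with 2 transcripts, 85.9% with 3, 75.1% with 4 and 66.2% with 5. By this measure gcl (96.6%) and tud (97.6%), with 2 each, were close to the median of their class. nos (78.6% of 2) and exu (59.5% of 4) were below it, and pgc, osk, vas and stau, with 3 each, and bcd (73.8% of 5) were above it. Where transcripts overlap, their counts are the authors' estimates of which transcript a read came from, and the intervals of shares do not cover that step.

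**Figure D2:**
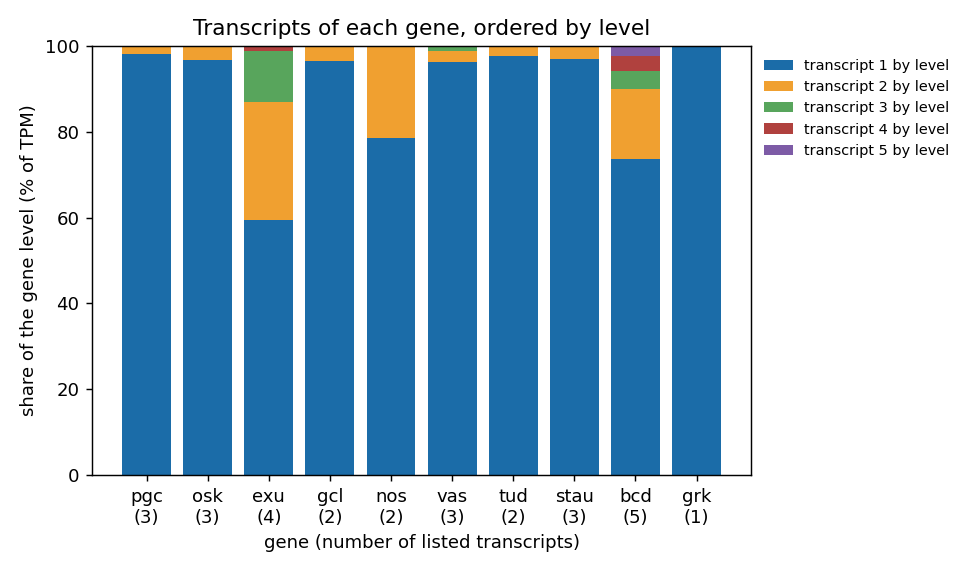
Share of each gene's TPM held by each of its transcripts in the adult mRNA library, in percent, with the number of listed transcripts in brackets and the most abundant transcript at the bottom of each bar. exu (59.5%), bcd (73.8%) and nos (78.6%) have the smallest leading shares, and in the other genes with several transcripts the leading one holds more than 96%.

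exu was the gene with the most even transcripts. FBtr0302285 led with 187 TPM, or 59.5% of the gene, followed by FBtr0086244 with 85.7 TPM, FBtr0086243 with 37.9 TPM and FBtr0086242 with 3.40 TPM. The first 2 share the far 3′ end of the gene, and the other 2 end 925 bases earlier. Transcripts with the far end held 86.8% of the TPM and 89.6% of the counts (95% exact Clopper-Pearson interval 89.1 to 90.1%), and those with the near end held 41.3 TPM. At the 5′ side, the first listed start, used by FBtr0086242, held 1.08% of the TPM. A start 322 bases further in held 59.5%, and one 592 bases further in, shared by 2 transcripts, held 39.4%. exu is known to make transcripts that differ between the female and the male germ line. The file does not name a sex for any of the 4 transcripts, and how much of each came from ovary or testis was not tested.

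nos and bcd each had a clear second transcript. In nos, FBtr0335019 stood at 62.5 TPM and FBtr0083732 at 17.0 TPM, so that the second held 21.4% of the TPM and 21.8% of the counts (Clopper-Pearson interval 20.4 to 23.3%). In bcd, FBtr0081665 stood at 46.8 TPM and FBtr0081668 at 10.3 TPM, or 73.8% and 16.3% of the gene. The remaining 3 bcd transcripts, FBtr0081667, FBtr0081666 and FBtr0081664, were between 2.61 and 1.48 TPM. All transcripts of nos share their first and last base, as do all 5 of bcd, so that within each of these genes they differ in what lies between. FBtr0081664, the least abundant of bcd, is also the shortest: its counts per TPM, which grow with length, were 0.592 times those of the leading transcript, whereas those of the other 3 were within 1.01 to 1.02 times.

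In the abundant pair, the leading transcript left little to the others. FBtr0081956 of osk stood at 464 TPM, FBtr0081954, with the same first and last base, at 14.5 TPM, and FBtr0392898, which starts 590 bases further in, at 1.59 TPM. The inner start of osk thus held 0.332% of the TPM, from 64 counts. In pgc, FBtr0112519 stood at 539 TPM and FBtr0112520, with 1.78 times its counts per TPM, at 8.36 TPM. FBtr0342987, which starts 1971 bases further in, stood at 1.94 TPM from 22 counts.

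stau, vas, gcl and tud were likewise carried by one transcript each. FBtr0086783 of stau stood at 65.9 TPM and FBtr0301614, which ends 1728 bases earlier, at 2.12 TPM. FBtr0086784, which starts 1906 bases further in, was the only one of the 28 without a count, which allows up to 3 counts (one-sided 95% limit). In vas, FBtr0445185 stood at 72.2 TPM, FBtr0445187, with the same ends, at 1.83 TPM, and FBtr0445186, which ends 44 bases further on, at 0.890 TPM. In gcl, the values were 105 TPM for FBtr0088710 and 3.70 TPM for FBtr0339337, and in tud they were 66.6 TPM for FBtr0071582 and 1.61 TPM for FBtr0342870. Both gcl transcripts, and both of tud, share their ends.

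**Figure D3:**
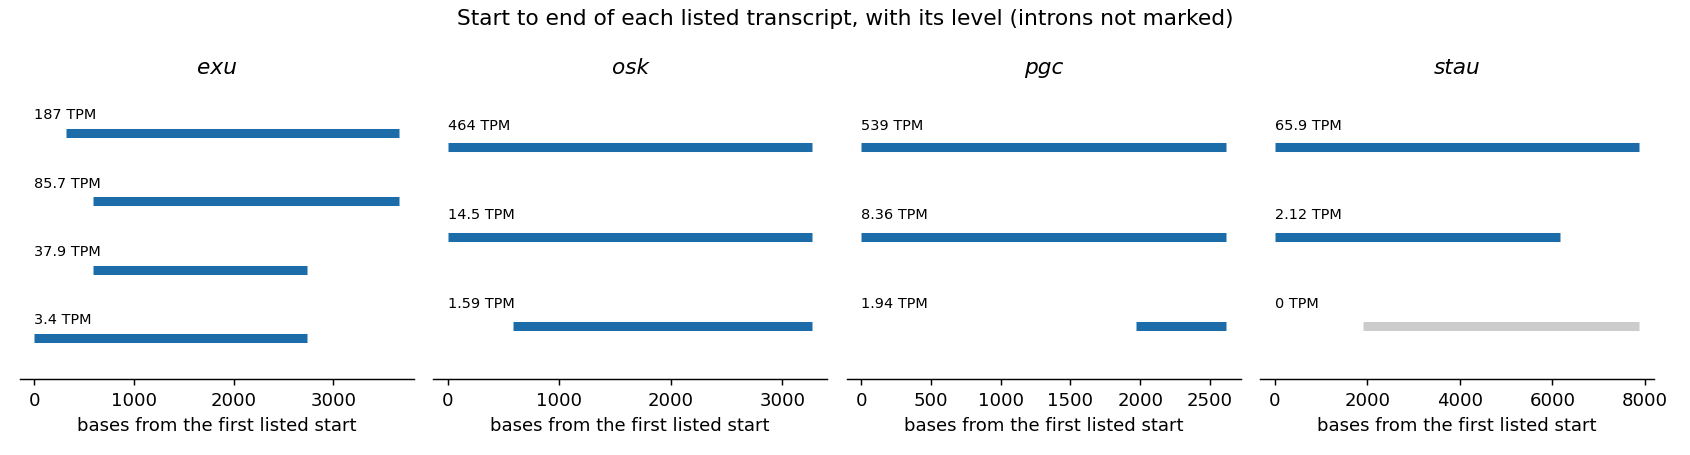
Extent of every listed transcript of exu, osk, pgc and stau from its start to its end, in bases from the first listed start of the gene, with its TPM in the adult mRNA library above the line. Introns are not marked, and the grey line is the stau transcript without a count. In exu the 2 transcripts with the far end carry 187 and 85.7 TPM, and in osk, pgc and stau transcripts with an inner start carry 1.59, 1.94 and 0 TPM.

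Other genes overlap 7 of the 10 by position, while bcd, tud and stau overlap none. How common such overlap is among all listed genes was not computed, so it is not shown to be particular to these genes. The strand setting of the counting is not given in the sources, and without strand, reads of shared exons on opposite strands cannot be told apart. nos, at 79.5 TPM, shares 2641 bases, 89.1% of its span, with CG11779 on the opposite strand, which stood at 64.6 TPM (interval 62.1 to 67.2). It also overlaps Nsun5 by 104 bases at its 3′ side, at 33.5 TPM. The level of nos was 1.23 times that of CG11779. The spans hold introns, and how many exonic bases are shared was not computed.

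vas shares its first base and strand with solo, a gene of chromosome cohesion in meiosis. solo stood at 2.55 TPM (interval 2.15 to 3.002) from 144 counts, and reads of the exons that both genes use could be split between them. vas exceeded it by 29.4 times. vig, which codes for a component of the RNA interference complex, lies within the vas span on the opposite strand and covers 58.4% of it. It stood at 71.4 TPM (interval 68.8 to 74.1), with vas at 1.05 times that level. nos and vas were thus the 2 genes with an opposite partner of like level over most of their span, introns included. How many exonic bases vas and vig share was not computed.

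The 3′ end of grk overlaps that of Akap200, an anchor of protein kinase A, by 212 bases, or 8.44% of the grk span. Akap200 stood at 305 TPM, and grk at 0.0919 times its level, the only case in which the partner was the more abundant. The remaining partners were lower than the gene they overlap. galla-1, at 56.0 TPM, shares 448 bases with the 5′ side of exu, and holds the first exu start as well as the start of the leading exu transcript, 322 bases further in. CG30356, at 30.8 TPM, shares 36 bases with gcl, and snoRNA:gcl-a, with 2 counts, lies within it. T3dh shares 1873 bases with pgc and stood at 5.01 TPM, and asRNA:CR44020 shares 162 bases with osk and stood at 2.09 TPM from 29 counts.

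Transcripts were found for all 24 listed genes whose proteins localise maternal RNAs or control their translation. All 24 reached 1 TPM, as did 86.3% of protein-coding genes, and their median was 111 TPM against 22.3 TPM for protein-coding genes. These are levels of whole adults, and which tissues gave them was not tested. They ran from 13.2 TPM for vls, which codes for the methylosome component Valois, to 1736 TPM for me31B. me31B, an RNA helicase of cytoplasmic RNA granules, and its partner tral, at 1467 TPM, exceeded each of the 10 genes. smg, at 435 TPM, codes for Smaug, which represses nos RNA outside the germ plasm. aret, which codes for the osk repressor Bruno, stood at 321 TPM, and osk at 1.5 times that level (interval 1.47 to 1.53).

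Genes of the same complex or pathway were compared pair by pair, with pairs chosen after the values had been seen. nos and pum, the genes of a repressor pair, could not be ordered, at 79.5 and 77.8 TPM (ratio 1.02, interval 0.980 to 1.06). brat, which joins them, stood at 85.7 TPM, and nos at 0.927 times that (interval 0.889 to 0.967). swa, which acts with exu on bcd RNA, stood at 259 TPM, and exu at 1.21 times that (interval 1.18 to 1.25). This order depends on the sum over exu transcripts. The leading exu transcript alone, at 187 TPM, lay below swa, for which 1 transcript is listed. bcd itself was at 0.246 times swa (interval 0.235 to 0.256). tud exceeded csul, at 52.5 TPM, whose enzyme methylates the arginines that Tudor binds, by 1.30 times (interval 1.23 to 1.37). vas exceeded aub, at 53.0 TPM, the gene of the Piwi protein Aubergine, by 1.41 times (interval 1.34 to 1.49). pum and brat also act in the nervous system, and the ratios are those of whole flies.

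The 8 genes of the germ plasm partners, which share vls with the list before, all reached 1 TPM, where 86.3% of protein-coding genes did, and had a median of 52.8 TPM. gus, whose protein binds Vasa, led at 242 TPM. faf, which codes for a deubiquitinase that acts on Vasa, stood at 83.6 TPM, krimp, a Tudor domain gene of the nuage, at 71.2 TPM, and vls was again the lowest.

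The route from Gurken to the follicle cells was measured at both ends. cni, which helps to export Gurken from the oocyte, stood at 107 TPM, and fs(1)K10, needed to place grk RNA, at 35.9 TPM. grk was at 0.261 times cni (interval 0.239 to 0.284) and at 0.781 times fs(1)K10 (interval 0.718 to 0.849). Egfr, the receptor, stood at 13.1 TPM, and grk at 2.15 times that (interval 1.96 to 2.35), although Egfr is used in many tissues.

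Of the 10 genes that the maternal gradients control in the embryo, all but cad and hb were low. RNAs of these 2 are also laid down in the egg, and which tissues gave their levels was not tested. cad, which Bicoid protein represses in translation, stood at 121 TPM, and hb, the target of Nanos, at 47.0 TPM. The other 8 lay between 0.220 TPM for tll and 6.60 TPM for kni, a gap gene. Of these 8, 3 were under 1 TPM: tll, run at 0.500 TPM and eve at 0.750 TPM. Of protein-coding genes, 86.3% reached 1 TPM. The median of all 10 was 1.42 TPM, against 77.2 TPM for the maternal genes and 11.7 TPM for all listed genes.

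The terminal system, which marks both ends of the egg, was at lower levels than most of the 10 genes. All 6 genes of its list reached 1 TPM, as did 86.3% of protein-coding genes, and their median of 22.8 TPM was close to the 22.3 TPM of protein-coding genes. tor, the receptor that Germ cell-less removes from pole cells, led at 43.5 TPM, followed by fs(1)N at 35.7 TPM and clos at 28.4 TPM, both of them eggshell proteins needed for terminal signalling. trk, the ligand, was the lowest at 10.2 TPM.

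**Figure D4:**
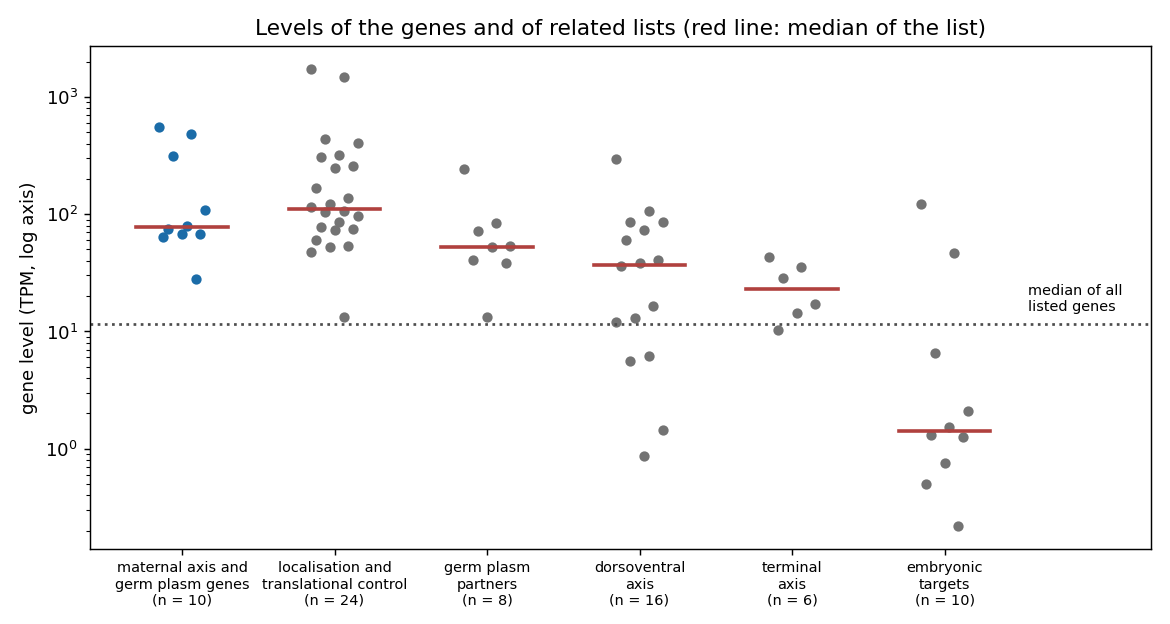
Level in TPM, on a log axis, of the 10 maternal axis and germ plasm genes and of the genes in 5 related lists in the adult mRNA library. Each point is a gene, the red line is the median of its list, the dotted line is the median of all listed genes (11.7 TPM), and vls appears in 2 lists. The medians run from 111 TPM for localisation and translational control over 77.2 TPM for the 10 genes down to 1.42 TPM for the embryonic targets.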

How the data were processed

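One library of adult mRNA was analysed. The paper's text describes the small RNA library of the series, which was not used here, and no mRNA library. The submitters' processing notes list CASAVA and HISAT2. Which tool, build and annotation gave the counts, and whether strand was used, is not given in the sources. The authors' deposited table holds counts per transcript (whole numbers, taken as estimates where transcripts overlap), TPM and FPKM. FPKM was used only to check that it was proportional to the deposited TPM (ratio 0.629 to 0.630 at 10 TPM or more). No deposited row lacked a gene ID.

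TPM and counts were summed over the transcripts of a gene. Symbols were found for 17560 of 17698 genes, with nos listed as nanos, aret as bru1 and fs(1)ph as fs(1)M3. Starts and ends of the 10 genes were the same as in the Release 6 table from RefSeq for 10 of 10. That table also gave the protein-coding class. Intervals were exact Poisson and Clopper-Pearson at 95% (scipy 1.17.1, pandas 2.3.3, Python 3.11.15), and their coverage was checked on simulated data. Without replicates no test was made and no p-value is given.

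The genes, lists and markers were chosen with earlier results of these data known. The text names all 10 genes with all their transcripts, of each context list the 3 highest and the lowest by TPM, every overlapping gene, and partners and other pathway genes picked after their values had been seen. For markers, ranges are given. Likeness of pattern could not be computed from 1 library. Alternatives were another threshold and pseudocount, a minimum of 10 reads, levels without mitochondrial genes, the leading transcript alone and counts without length.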

Additional observations from a re-analysis of the deposited data

How the results depend on the processing

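All 10 genes stayed above the threshold at 5 TPM in place of 1 TPM, which follows from the lowest level, 28.0 TPM for grk. They also stayed above 1 TPM with transcripts under 10 reads set to 0. Each kept its leading transcript when shares of counts replaced shares of TPM. The median of log10(TPM + 1) over the 10 genes was 1.89 (counting interval 1.88 to 1.91) and kept that value with the read minimum and with a pseudocount of 0.1. It was 1.91, just above the interval, without genes of the mitochondrial genome, since that rescaling raises every level by 1.04 times. The median exceeded that of all genes by 0.79, and that of protein-coding genes by 0.53, a background chosen after seeing the data. Of the 10 places in the order, 6 stayed with the leading transcript alone, where nos moved from place 5 to place 8, and 2 with counts regardless of length. With the leading transcript alone, gene levels were between 0.595 (exu) and 1 times the sum. Adding solo to vas, an alternative chosen after seeing the data, gave 77.5 TPM. No paired analysis was possible because the mRNA was measured in 1 library, which also leaves no replicate to omit. Counting error was small at this depth. The unknown spread between flies limits each comparison, and the processing choices above that moved levels or places limit them as well.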

Other observations

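Genes of the dorsoventral axis, from the placing of grk RNA to the Toll pathway, were uneven in the adult mRNA library. Of its 16 listed genes, 15 reached 1 TPM, against 86.3% of protein-coding genes, with a median of 37.2 TPM. cact, the inhibitor that holds Dorsal in the cytoplasm, led at 297 TPM, and dl, the gene of the transcription factor itself, stood at 86.0 TPM. Tl, the receptor, was at 59.8 TPM and its ligand spz at 85.4 TPM, with tub and pll, which carry the signal in the cell, at 72.8 and 38.5 TPM. These genes also serve in immunity. The protease genes that activate the ligand ranged from 1.44 TPM for ndl over 6.16 TPM for gd and 11.96 TPM for snk to 40.8 TPM for ea. pip, expressed in ventral follicle cells, was the lowest at 0.860 TPM (counting interval 0.588 to 1.21). brn, a glycosyltransferase gene of oogenesis, stood at 16.6 TPM and rho, which codes for a protease that releases ligands of the epidermal growth factor receptor, at 5.56 TPM.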
